A study of Mus musculus with 20 samples.

Results

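The cytosolic ribosomal protein genes are the 80 genes, of 15956 listed, whose symbol is Rpl, Rps, or Rplp followed by a number and at most 1 of the letters a, x, or l, together with Rpsa. They comprise 48 genes named Rpl and 32 named Rps, and pseudogenes with -ps in their symbol and the ribosomal S6 kinases stay outside the rule. Of the 80 members, 1, Rps4l, is annotated as a transcribed processed pseudogene, and the other 79 as protein-coding. Their RNA was counted in left ventricular tissue of 20 male mice, 5 in each of 4 diet groups. The normal protein (NP) and low protein (LP) diets held 20% and 5% casein, the high-fat (HF) diet held 20% casein, and the high-fat diet with low protein (HF+LP) held 5%. The study's methods place the start of the diets at 12 months of age and the end 4 months later, while each sample's label states 18 months. Strain and genotype are not given in the sources used here, and no group carried a named allele or drug. The labels name 1 animal for each library, with LP mouse 5 marked as its second sample, and the 5 libraries of a group are the replicates.

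The cytosolic ribosome translates nuclear-encoded mRNA, with a small subunit that decodes the message and a large subunit that joins amino acids. Most ribosomal proteins are needed in about equal number per ribosome. Most of their mRNAs begin with a cytosine and a stretch of pyrimidines, the 5′ terminal oligopyrimidine (TOP) motif. Through it mTORC1 and LARP1 set the translation of these mRNAs. Heart and skeletal muscle also express RPL3L, a paralog that takes the place of RPL3 in the ribosome.

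Windows around annotated transcription starts were found for 59 of the 80 members in the RefSeq promoter sequences (GRCm38.p6), 71 windows in all. A run of at least 5 pyrimidines that began with a cytosine within 5 bases of the start was present in 42.3% of the member windows and in 18.3% of all 32851 windows of that length. A run of at least 8 was present in 28.2% and 4.37%, and such windows are also counted among the first. The starts below show the stalk protein gene Rplp2 and the small subunit gene Rps27, which had some of the larger diet differences, the widely varying pair Rps6 and Rpl15, and the muscle paralog Rpl3l with Rps27l. Each holds the 12 bases before the annotated start and the 18 bases from it, in the direction of transcription, with the pyrimidine run in capitals, and Rpl3l has none.
Rplp2, chr7:141447639-141447668 (+): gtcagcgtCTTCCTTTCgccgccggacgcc
Rps27, chr3:90213631-90213660 (-): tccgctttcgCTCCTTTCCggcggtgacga
Rps6, chr4:86857350-86857379 (-): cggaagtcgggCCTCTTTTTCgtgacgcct
Rpl15, chr14:18270969-18270998 (-): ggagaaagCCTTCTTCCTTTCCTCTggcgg
Rps27l, chr9:66946074-66946103 (+): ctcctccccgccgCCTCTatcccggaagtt
Rpl3l, chr17:24727814-24727843 (+): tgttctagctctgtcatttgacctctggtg
The letters CCGGAAG, the core of ETS and GABP sites, stood on either strand in 36.6% of the member windows and in 8.86% of all windows. The YY1 letters AAGATGGC stood on either strand in 9.86% and 2.75%. TATAAA between 40 and 15 bases before the start, on the transcribed direction only, was in 0 of the 71 member windows and in 1.99% of all windows. These matches are descriptions of letters in a 300-base window. The first and second sets of letters can share AAG where they adjoin.

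Of the 80 members, 79 passed the filter on low counts. The exception was Rpl39l, a paralog known from testis, with 120 counts over the 20 libraries. Library totals lay between 12559607 and 23331907 counts. Mitochondrially encoded genes took 35.4% to 47.2% of them, so shares are given here of the nuclear-encoded counts. That mitochondrial share was 41.3% to 47.1% for NP mice and 38.1% to 39.8% for HF mice, which did not overlap, 35.4% to 44.5% for LP mice, and 38.5% to 47.2% for HF+LP mice. The library of LP mouse 13 correlated with the rest of its group at 0.908, against 0.944 to 0.979 for the other libraries, and held the highest adipocyte and atrial marker sums of all LP mice, 9035 and 79172 normalized counts. Atrial marker sums also stood apart in other groups, with a highest value of 64410 in HF mouse 1 (group median 296), 30918 in HF mouse 3, 29658 in HF+LP mouse 3 (group median 219), and 20386 in NP mouse 5 (group median 7473). LP mouse 20 held the highest lymphocyte marker sum, 1261 against a group median of 91. Cardiomyocyte markers were abundant in every library, with 10 genes summing to between 661935 and 1079767 normalized counts.

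Of nuclear-encoded counts, members took up 2.68% ± 0.12 in the NP group and 3.04% ± 0.19 in the HF+LP group (mean ± SD, n = 5). The LP mean was 2.98% ± 0.19 and the HF mean 2.94% ± 0.089. Single mice ran from 2.49% to 2.78% for NP and from 2.74% to 3.23% for HF+LP, while LP mice ran from 2.803% to 3.27% and HF mice from 2.78% to 2.99%. The 5 NP mice lay at the low end of the scale, with 1 HF+LP mouse among them. Large subunit genes made up 1.45% ± 0.065 in NP and 1.603% ± 0.10 in HF+LP, with LP at 1.61% ± 0.11 and HF at 1.55% ± 0.043. Small subunit genes made up 1.22% ± 0.063 in NP and 1.44% ± 0.095 in HF+LP, with LP at 1.37% ± 0.094 and HF at 1.39% ± 0.048. A share sums genes of very different abundance, and in bulk tissue fewer cells of a type and less RNA per cell cannot be told apart. As a share of all counts, mitochondrial ones included, members took up 1.52% ± 0.13 in NP, and the highest mean was that of HF, 1.80% ± 0.054, with LP at 1.78% ± 0.14 and HF+LP at 1.73% ± 0.19. No test was run on these sums.

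**Figure D1:**
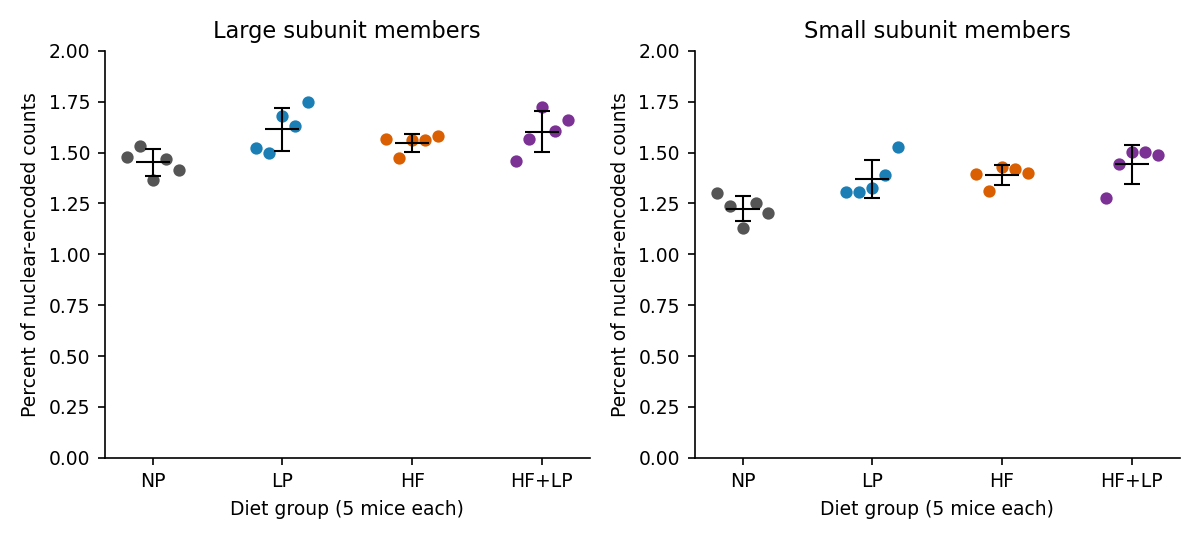
Percent of nuclear-encoded counts from large subunit (left) and small subunit (right) members, by diet group. Each point is 1 of 5 mice and the bars give the mean ± SD. NP had the lowest mean in both panels, 1.45% and 1.22%.

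In each comparison, no member was called at an adjusted p under 0.01 with a mean normalized count over 50 (edgeR quasi-likelihood test, Benjamini-Hochberg adjustment over 13991 genes). None had an adjusted p under 0.05 in that test either. DESeq2 also called 0 members, but its smallest adjusted p-values among members were 0.012 between HF+LP and NP and 0.038 between HF and NP. Of all genes tested, 0.264% were called between HF and NP, 0.1% between HF+LP and LP, 0.0286% between HF+LP and NP, and 0% between HF+LP and HF, between LP and NP, and for the interaction of fat and protein content. The members' differences were nevertheless mostly to one side. Of the 79 tested, 66 had a higher fitted level in HF than in NP, 72 in LP than in NP, 72 in HF+LP than in NP, 67 in HF+LP than in HF, and 61 in HF+LP than in LP. Of all genes tested, the shares with a higher fitted level were 49.8%, 54.6%, 50.2%, 53.7%, and 45.8% in the same order. Comparisons with the same control or group are not independent.

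The widest separation lay between HF+LP, the diet with both changes, and NP. The median log2 fold change of the members was 0.23 (1.17-fold), against 0.0009 over all genes tested. In each pairwise comparison the median standard error (SE) was 0.11 for members and 0.19 over all genes tested. A given difference thus passes an unadjusted threshold more often among members, and the shares of all genes are not matched for this. At an unadjusted p under 0.05, 31 of 79 members were higher in HF+LP and 0 were lower. The shares of all genes were 3.9% higher and 4.87% lower. The count of 31 became 37 with DESeq2, and it lay between 22 and 37 when single mice were left out. Without the library with the highest atrial marker sum in each group, a choice made after seeing the data, it was 25, with a median of 0.19. The fitted differences ran from -0.10 for Rps4l to 0.73 ± 0.26 (SE) for Rpl19, a protein of the large subunit that reaches toward the small one (adjusted p = 0.38 by edgeR). The smallest adjusted p among members was 0.22, for Rps29. Groups did not overlap, with all 5 HF+LP mice above all 5 NP mice, for 6 members, among them Rps27, Rps4x, Rpl23, and Rpl28, against 0.965% of all genes, and 0 members lay wholly below NP. These 4 were named after their values were seen.

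**Figure D2:**
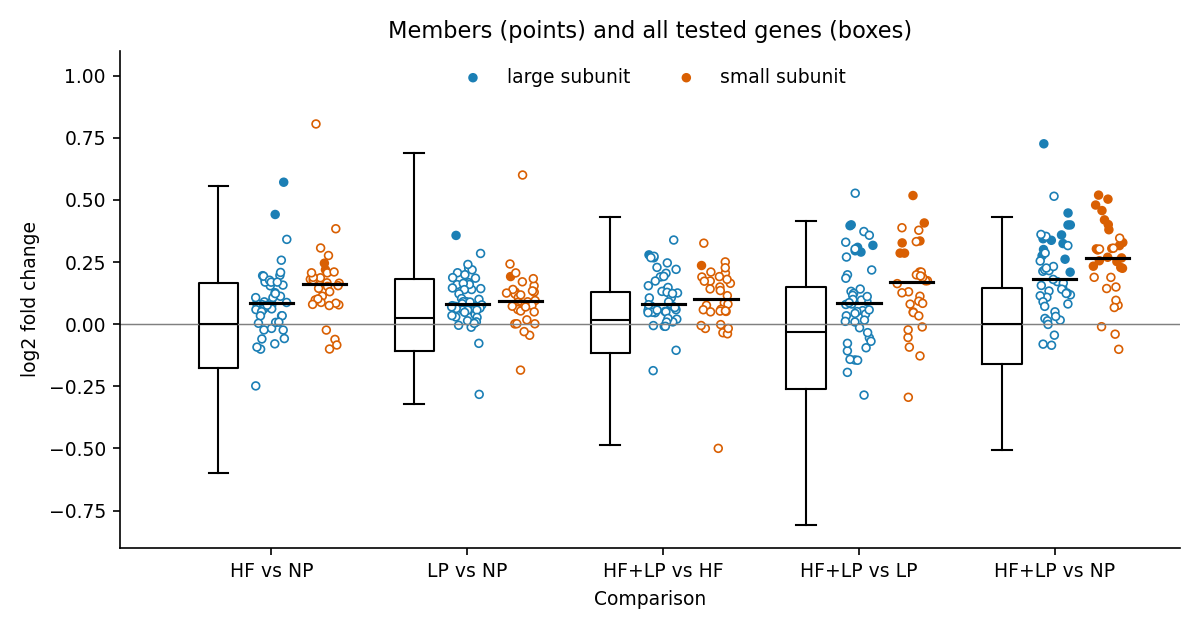
Log2 fold changes of the 47 large subunit (blue) and 32 small subunit (orange) members in 5 comparisons, filled where the unadjusted p was under 0.05, with black lines at their medians. Boxes show the quartiles of all 13991 genes and whiskers the 5th to 95th percentiles. In HF+LP against NP, 31 points are filled, all above 0.

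Rps29, a small zinc-binding protein in the head of the small subunit, was counted at 7535, 8196, 8369, 9253, and 10796 in the 5 NP mice. In HF+LP it stood at 9638, 10248, 11897, 12774, and 13723 normalized counts. The LP mice lay between 8607 and 9604 and the HF mice between 9264 and 10908. The groups overlapped through 1 high NP mouse, and the log2 difference between HF+LP and NP was 0.40 ± 0.11 (SE; 95% interval 0.18 to 0.63; edgeR adjusted p = 0.22).

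The acidic stalk of the large subunit, built of RPLP0, RPLP1, and RPLP2, recruits translation factors. Rplp2 was counted at 4365, 4776, 5139, 5289, and 6138 in NP and at 5935, 6084, 6460, 7347, and 8070 in HF+LP. Only the highest NP mouse reached into the HF+LP range, and the log2 difference was 0.40 ± 0.11 (SE; edgeR adjusted p = 0.24). Rplp0, whose protein forms the base of the stalk, was counted at 2448, 3102, 3123, 3404, and 3617 in NP and at 3595, 3597, 3667, 4528, and 4530 in HF+LP, a log2 difference of 0.34 ± 0.15 (SE; edgeR adjusted p = 0.49). Here too the groups met at the highest NP mouse. Rplp1 had 11388 to 13990 in NP and 12238 to 16182 in HF+LP, a log2 difference of 0.18 ± 0.098 (SE; edgeR adjusted p = 0.65). Rplp1 was the member with the highest count, at a mean of 13088 over the 20 mice. LP mouse 13 had the lowest Rplp0 count of all 20, at 1935.

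Rpl23, a large subunit protein that can also bind MDM2, was counted at 4614, 4732, 4752, 4983, and 5068 in NP and at 5495, 5633, 5769, 5986, and 7629 in HF+LP. Rps27, a zinc-finger protein of the small subunit, was counted at 2619, 2682, 2694, 2706, and 3047 in NP and at 3386, 3482, 3544, 3650, and 3828 in HF+LP. In both genes the HF+LP mice lay above every NP mouse. The log2 differences were 0.34 ± 0.10 (adjusted p = 0.26 by edgeR) for Rpl23 and 0.38 ± 0.11 (adjusted p = 0.26 by edgeR) for Rps27.

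**Figure D3:**
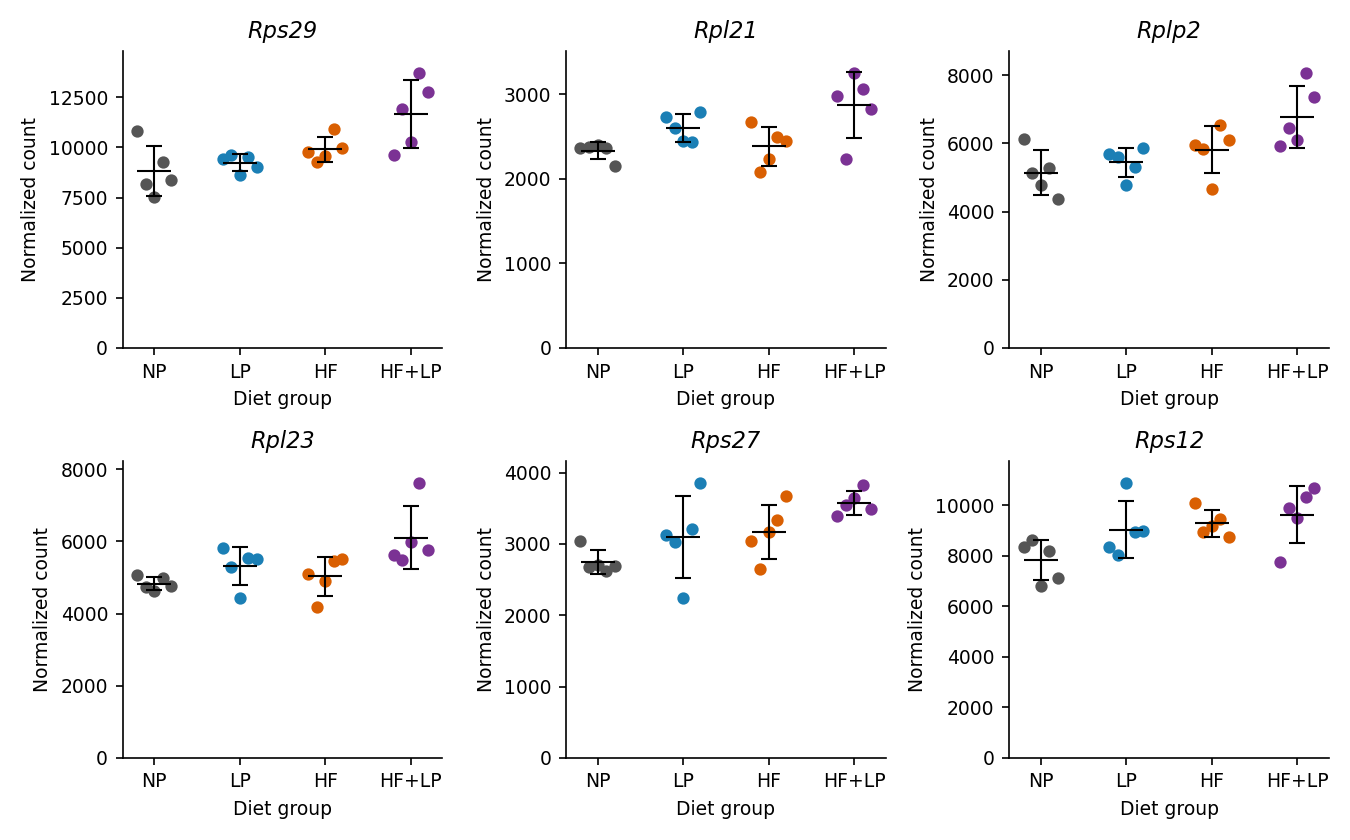
Normalized counts of 6 members in the 20 mice, by diet group, with the mean ± SD in black. For Rpl23 and Rps27, every HF+LP mouse is above every NP mouse, and for Rps29 and Rplp2 the highest NP mouse lies within the HF+LP range.

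The small subunit had more members past the unadjusted threshold between HF+LP and NP, 19 of 32 with a median log2 fold change of 0.27, than the large subunit, 12 of 47 with a median of 0.18. The difference between the subunits was not tested. By role, 4 of 7 proteins at the decoding site and mRNA channel, 2 of 3 stalk proteins, 2 of 4 proteins of the 5S particle or with MDM2 binding, and 2 of 9 proteins around the exit tunnel had an unadjusted p under 0.05 upward, beside 31 of all 79 members and 3.9% of all genes. Genes mutated in Diamond-Blackfan anemia, an inherited failure of red cell production, had 8 of 18, with a median of 0.23, and the 4 members on the X chromosome had 1, Rps4x. Of the 3 alternative paralogs tested, Rpl3l, Rps4l, and Rps27l, none did. A gene can stand in more than 1 of these sets.

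Members with functions of their own were compared between NP and HF+LP in the same way. Rps19, the gene most often mutated in Diamond-Blackfan anemia, was counted at 2692, 3170, 3312, 3319, and 3583 in NP and between 3233 and 4342 in HF+LP, a log2 difference of 0.19 ± 0.10. Rpl5, which carries 5S rRNA and binds MDM2, was counted at 951, 955, 1185, 1225, and 1247 in NP and at 1144, 1207, 1277, 1382, and 1722 in HF+LP, a difference of 0.28 ± 0.12. Its partner Rpl11 ran from 5572 to 7676 in NP and from 6387 to 8277 in HF+LP, a difference of 0.13 ± 0.11. All 3 overlapped through at least 2 mice of a group. Rpsa, also known as the laminin receptor precursor, was counted at 1458, 1506, 1530, 1697, and 1782 in NP and at 1639, 1769, 1852, 2123, and 2132 in HF+LP, a difference of 0.26 ± 0.098. Rps27a, made as a fusion with ubiquitin, was counted at 1057, 1127, 1156, 1214, and 1489 in NP and at 1236, 1513, 1726, 1826, and 2263 in HF+LP, a difference of 0.50 ± 0.21. In Rps27a only the highest NP mouse lay within the HF+LP range. Rpl5, Rpsa, and Rps27a were among the 31 members with an unadjusted p under 0.05, and the edgeR adjusted p-values of all 5 genes lay between 0.43 and 0.84.

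Markers of other cells also differed between HF+LP and NP. Erythroid markers (5 genes, hemoglobins and Alas2) summed to 60801 to 178249 normalized counts in NP and 82070 to 313598 in HF+LP, and 4 of the 5 had an unadjusted p under 0.05 upward. Endothelial markers had 2 of 8 upward, nuclear RNAs 2 of 4 downward, smooth muscle and pericyte markers 2 of 6 downward, cardiomyocyte markers 1 of 10 downward, and adipocyte markers 1 of 5 downward. Fibroblast, macrophage, lymphocyte, and atrial markers had none, with 5 of 10 lymphocyte genes tested. Their part in the ribosomal protein result was not tested. The first number of the library name, 1 to 3, has no stated meaning, and with it as a covariate 28 members passed the unadjusted threshold. Averaged over members, log2 normalized levels centred on each gene lay between -0.15 and -0.073 in NP and between 0.052 and 0.14 in HF+LP within the 3 library numbers. These means rest on few mice, since number 1 held 1 NP and 1 HF+LP mouse and number 2 held 2 and 1. In number 1 the member share had the other order, 2.77% in the NP mouse and 2.74% in the HF+LP mouse.

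High fat was compared with normal fat at 20% casein. Between HF and NP, the members' median log2 fold change was 0.11 and all genes' -0.001. Of the members, 4 had an unadjusted p under 0.05 upward and 0 downward, near or below the 5.17% and 7.91% of all genes. Only 1 member, Rps12, did not overlap, against 2.07% of all genes. Macrophage markers had 6 of 10 upward in the same comparison, with a median of 0.48 and sums of 5749 to 7638 normalized counts in NP and 7596 to 9994 in HF. Cardiomyocyte markers had 3 of 10 downward, smooth muscle and pericyte markers 2 of 6 downward, and nuclear RNAs 2 of 4 downward with 1 called. Fibroblast, endothelial, erythroid, and adipocyte markers had 1 upward each, and the part of these markers in the members' result was not tested. With the other 2 diet groups left out of the model this count of 4 became 16, with DESeq2 it was 10, without NP mouse 3 or HF mouse 2 it was 10, and without NP mouse 5 it was 2. Rpl24 and Rps12 were among the 3 members with the smallest p.

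Rps12, a small subunit protein of the beak, was counted at 6813, 7134, 8205, 8353, and 8636 in NP and at 8745, 8937, 9182, 9445, and 10083 in HF. The LP mice had 8016, 8331, 8933, 8979, and 10895, and the HF+LP mice 7760, 9504, 9884, 10326, and 10665. Each of the other diets lay mostly above NP, with overlap in LP and HF+LP, and the log2 difference between HF and NP was 0.25 ± 0.10 (SE; edgeR adjusted p = 0.31). Rpl24, at the subunit interface, was among the least counted members, at 52.5, 66.2, 66.7, 69.5, and 93.5 in NP and 81.4, 85.7, 91.7, 105, and 109 in HF. Its log2 difference was 0.44 ± 0.16 (SE; edgeR adjusted p = 0.21), with 1 NP mouse inside the HF range.

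Protein restriction was compared at each fat content. Between LP and NP, 2 members had an unadjusted p under 0.05 upward and 0 downward, against 5.02% and 2.21% of all genes, and the median was 0.089 against 0.023. Lymphocyte markers had 4 of 5 upward, adipocyte markers 3 of 5, and erythroid and atrial markers 1 each, while all 10 cardiomyocyte markers had a lower fitted level, with a median of -0.21 and 1 at an unadjusted p under 0.05. Their part in the members' values was not tested. Rpl21, a large subunit protein, was the 1 member without overlap (0.443% of all genes), at 2153 to 2402 in NP and 2439 to 2790 in LP. The smallest p-values belonged to Rpl3, Rps28, and Rps12. Rps28, at the mRNA exit, was counted at 3480, 3867, 3959, 4026, and 4204 in NP and at 4171, 4411, 4412, 4529, and 4785 in LP, and the 2 ranges met at 1 mouse each. Its log2 difference was 0.19 ± 0.087 (SE; edgeR adjusted p = 0.67). The count of 2 became 5 with DESeq2, 5 without LP mouse 5, where 1 member was also downward, and 3 without NP mouse 4. It was 1 without NP mouse 5 or LP mouse 13, and 0 without NP mouse 8, LP mouse 15, or LP mouse 20.

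Between HF+LP and HF, 3 members had an unadjusted p under 0.05 upward and 0 downward, against 2.41% and 2.43% of all genes. The median was 0.086, against 0.017 over all genes, and 0 members were free of overlap, against 0.543% of all genes. Macrophage and fibroblast markers had 2 downward each, endothelial markers 1 downward, and nuclear RNAs and smooth muscle and pericyte markers 1 upward each, and their part was not tested. The 3 were Rpl21 (log2 difference 0.27 ± 0.098), Rpl23 (0.28 ± 0.10), and Rps29 (0.24 ± 0.11), with edgeR adjusted p-values of 0.68, 0.69, and 0.97. In Rpl21 the HF mice had 2078, 2230, 2443, 2497, and 2675 and the HF+LP mice 2230, 2823, 2979, 3061, and 3254. Only 1 HF+LP mouse reached down into the HF range. Without HF+LP mouse 1 the count of 3 became 11, without HF mouse 4 it was 5, and without HF+LP mouse 4 it was 1. Without the highest atrial library of each group it was 6.

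High fat was also compared at 5% casein. Between HF+LP and LP, 13 members had an unadjusted p under 0.05 upward and 0 downward, against 6.26% and 9.66% of all genes, and the medians were 0.11 and -0.030. Groups did not overlap for 2 members, Rplp2 and Rps29, against 0.915% of all genes. Adipocyte markers had 5 of 5 downward in this comparison, with a median of -4.69 and sums of 27 to 9035 normalized counts in LP and 7 to 309 in HF+LP. Lymphocyte markers had 2 of 5 downward, nuclear RNAs 2 of 4 with 1 called, smooth muscle and pericyte markers 2 of 6, and atrial markers 1 of 4. Endothelial markers had 2 upward, macrophage markers 1 upward, and cardiomyocyte markers 1 upward and 1 downward, and the part of these markers in the members' result was not tested. Rps29 had the smallest p of the 3 leading genes, with a log2 difference of 0.33 ± 0.11 (SE; edgeR adjusted p = 0.14). Rpl41, which encodes the smallest ribosomal protein, was counted at 1269, 1697, 1789, 1833, and 2041 in LP and at 1891, 2129, 2136, 2212, and 2987 in HF+LP, a log2 difference of 0.40 ± 0.13 (SE; edgeR adjusted p = 0.16). Rpl36, a large subunit protein, was counted at 1515, 1978, 2029, 2053, and 2155 in LP and at 2102, 2217, 2297, 2537, and 2741 in HF+LP, and differed by 0.29 ± 0.10 (SE; edgeR adjusted p = 0.18). Of all LP mice, mouse 13 had the lowest count of both Rpl41 and Rpl36, and without it the count of 13 became 10. Without LP mouse 20 it was 20, and without HF+LP mouse 4 or with only these diets in the model it was 8. Without LP mouse 5, 12 were upward and 2 downward, and without HF+LP mouse 3, 12 upward and 1 downward. With the animal number as a block the upward count was 0, although the numbers did not pair the mice and HF+LP and LP shared only 2 of them.

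The median half-width of a member's 95% interval was 0.24 on the log2 scale in the 5 pairwise comparisons and 0.34 for the interaction, and between HF and NP the whole interval lay within 0.5 of 0 for 59 of 79 members. The same held for 62 members between LP and NP, 59 between HF+LP and HF, 50 between HF+LP and LP, and 42 between HF+LP and NP. For those members a difference beyond 0.5 lay outside the interval. For the interaction of fat and protein, members were divided, 42 above and 37 below 0, with a median of 0.004 against -0.006. At an unadjusted p under 0.05, 1 member was above and 0 below, against 2.86% and 4.31% of all genes.

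That 1 member was Rpl3l, the striated muscle paralog of Rpl3. Rpl3l was counted at 3026, 3161, 3244, 3725, and 4442 in NP and at 1753, 2443, 3239, 3278, and 3761 in LP. With high fat the counts were 2330, 2714, 2919, 3325, and 3526 in HF and 2800, 3545, 3798, 3942, and 4649 in HF+LP. All pairs of groups overlapped. The log2 difference for low protein was -0.28 ± 0.18 at normal fat and 0.34 ± 0.18 at high fat, and the interaction was 0.62 ± 0.25 (SE; unadjusted p = 0.024, edgeR adjusted p = 0.68). Of the cardiomyocyte markers, 10 of 10 also had an interaction above 0, with a median of 0.33 and 2 at an unadjusted p under 0.05. Downward at that threshold were 4 of 5 adipocyte, 2 of 10 macrophage, 2 of 5 lymphocyte, 1 of 8 fibroblast, and 1 of 4 atrial markers. All 4 atrial markers had an interaction below 0, with a median of -2.75. Without NP mouse 3 or HF+LP mouse 5, Rpl3l no longer had an unadjusted p under 0.05, with interactions of 0.52 and 0.53. The part of the markers other than the atrial ones in the Rpl3l values was not tested.

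Rpl3, whose protein sits near the peptidyl transferase center, had differences of the opposite sign. It was counted at 1287, 1446, 1574, 1636, and 1682 in NP and at 1423, 1583, 1979, 2231, and 2547 in LP. The log2 difference was 0.36 ± 0.16 (SE; edgeR adjusted p = 0.67). This difference changed sign with the animal number as a replicate block, where LP and NP shared only 1 number. The HF mice had 1374, 1511, 1548, 1794, and 2398 and the HF+LP mice 1471, 1482, 1499, 1547, and 2015. Here too the groups overlapped, and the interaction was -0.46 ± 0.23 (SE; edgeR adjusted p = 0.70).

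The ratio of Rpl3l to Rpl3 counts within a library does not depend on scaling between libraries. Its log2 value was 1.20 ± 0.30 for NP mice and 0.55 ± 0.77 for LP mice (mean ± SD, n = 5). At high fat it was 0.79 ± 0.48 for HF and 1.22 ± 0.44 for HF+LP. Mice of LP spread from -0.54, in mouse 13, to 1.40, and those of NP from 0.85 to 1.62. In the 4 single comparisons of this ratio the two-sided exact permutation p lay between 0.12 and 0.20, all with an adjusted p of 0.37 over 12 ratio tests. The low protein difference was -0.65 at normal fat and 0.42 at high fat, and the difference between them was 1.07 (exact permutation of diet labels within fat content, p = 0.031, adjusted over 3 ratios p = 0.092). This interaction test was added after the ratios had been seen. Without LP mouse 13 the ratio difference between LP and NP was -0.37, the Rpl3l interaction 0.48, and the Rpl3 difference between LP and NP 0.23, while the members' median between LP and NP was 0.12.

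The lowest ratio of each group was in the library with the highest atrial marker sum of that group. These were NP mouse 5 (0.85), LP mouse 13 (-0.54), HF mouse 1 (-0.041), and HF+LP mouse 3 (0.47). HF mouse 3, with the second highest atrial sum of the HF group, had a ratio of 1.09, and LP mouse 20, with an atrial sum of 8854, one of 0.13. With the 4 libraries left out, the low protein difference in the ratio was -0.46 at normal fat and 0.40 at high fat, and the difference between them was 0.86 rather than 1.07. The Rpl3l interaction was then 0.54 ± 0.21 (SE; edgeR adjusted p = 0.53). Leaving out these libraries also takes away the lowest ratio of every group, so the spread of the remaining mice is smaller by that choice.

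**Figure D4:**
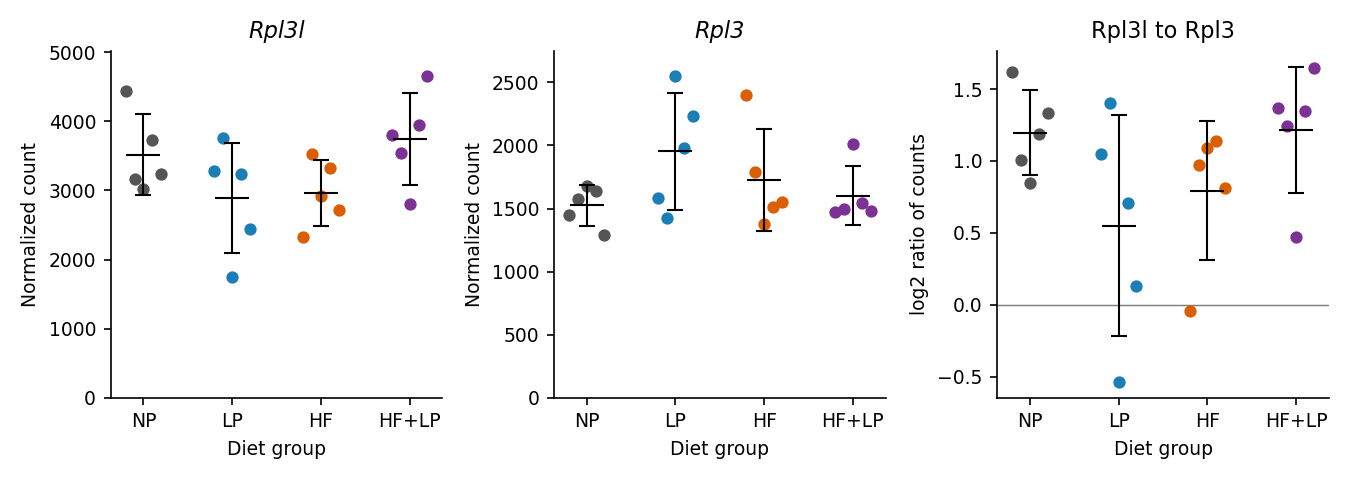
Normalized counts of Rpl3l and Rpl3 and the log2 ratio of their counts in each mouse, with the mean ± SD in black. The ratio averages 1.20 in NP and 1.22 in HF+LP, and spreads furthest in LP, from -0.54 to 1.40.

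The other paralogs gave smaller ratio differences. Rps27l, a p53-responsive paralog of Rps27, had between 782 and 1260 normalized counts in single mice. The log2 ratio of Rps27l to Rps27 was -1.55 ± 0.10 in HF and -1.76 ± 0.096 in HF+LP (two-sided exact permutation p = 0.016, adjusted p = 0.19), and its other comparisons had adjusted p-values of 0.48 or more. For Rpl22l1 to Rpl22, the log2 ratio lay between -3.37 in HF and -3.04 in LP, and the adjusted p-values over its 4 comparisons lay between 0.37 and 0.83. Rpl22 was the member that varied least between mice of a group, with an SD of 0.094 on the log2 scale.

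Members varied to unlike degrees between mice of the same group, with SDs of log2 normalized counts from 0.094 (Rpl22) to 1.38 (Rps6). The median within-group SD was 0.17 over 79 members and 0.22 over the 1628 genes with a mean normalized count over 1000. These sets were not matched for abundance, and over 78 members the SD fell as the mean count rose (Spearman's rho = -0.62). Pairs of members had a median correlation of 0.14 over the 20 mice after group means were removed, against 0.10 for pairs of the 1628 genes. The correlation of a member with the mean of the others ran from -0.47 for Rpl13 to 0.85 for Rps4x. Libraries share scaling, which enters every such correlation.

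Rps6, the target of the S6 kinases, had the lowest mean count of the tested members and the widest spread. It was counted at 10.3, 23.1, 28.8, 70.4, and 138 in NP mice and at 26.5, 34.9, 49.2, 133, and 155 in LP mice. The HF mice had 10.5, 26.7, 51.0, 183, and 191, and the HF+LP mice 13.4, 36.3, 50.4, 80.8, and 151. Each diet thus held both low and high mice, an 18.5-fold span over the 20 mice with raw counts from 8 to 249. The within-group SD was 1.38 on the log2 scale. The log2 difference between HF and NP was 0.81 ± 0.75 (SE; edgeR adjusted p = 0.74), an interval that spans -0.77 to 2.38.

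Some members followed Rps6 from mouse to mouse, in a share near that of genes outside the rule. Rpl15 (r = 0.93), Rpl17 (0.91), Rpl30 (0.90), Rpl7a (0.83), and Rps24 (0.81), all but the last of the large subunit, correlated with it within groups, and 9 of 78 members had a correlation over 0.7. Among genes outside the rule with a mean count over 50, 951 of 10070 did, led by Mlx (0.98), Snrpf (0.98), and Kcnj2 (0.97). Rplp1 had the opposite sign, at -0.84. These correlations over 20 mice are descriptions without a test, and the genes were picked by their values. A model then took as a covariate the mean level of the 157 outside genes that correlated with Rps6 above 0.9, chosen after seeing the data. In it 0 members were called, and 40 rather than 31 had an unadjusted p under 0.05 between HF+LP and NP. Of all genes, 4.86% were then higher and 6.39% lower, against 3.9% and 4.87% without the covariate. The members' count was 8 rather than 4 between HF and NP, and 5 rather than 2 between LP and NP. It was 6 rather than 3 between HF+LP and HF, and 17 rather than 13 between HF+LP and LP.

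Ribosomal protein genes have many processed pseudogenes whose sequence can match their reads. Ribosomal protein pseudogenes with -ps in their symbol numbered 66 among the listed genes, of which 38 were tested, with 5 upward and 1 downward between HF+LP and NP at an unadjusted p under 0.05. Within the last 300 bases of the annotated transcripts (GENCODE M21), the share of 75-base stretches, the read length, that occur exactly in a transcript of another gene was over 50% for 33 of 78 members and 0 for 12. It was 81.4% for Rps6, with 9 other genes, 79.2% for Rpl24, and 70.0% for Rpl15, but also 95.6% for Rps12 and 52.2% for Rplp1, 2 of the most counted members. Over the 78 members, Spearman's rho was -0.19 between this share and the mean count, and -0.62 between the mean count and the within-group SD, both across genes that are not independent. How such reads were assigned is not given in the sources used here, so counts of these members are uncertain. Members with over 50% shared and the other 45 had median log2 fold changes of 0.23 and 0.22 between HF+LP and NP, with 10 of 33 and 21 of 45 past the unadjusted threshold.

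**Figure D5:**
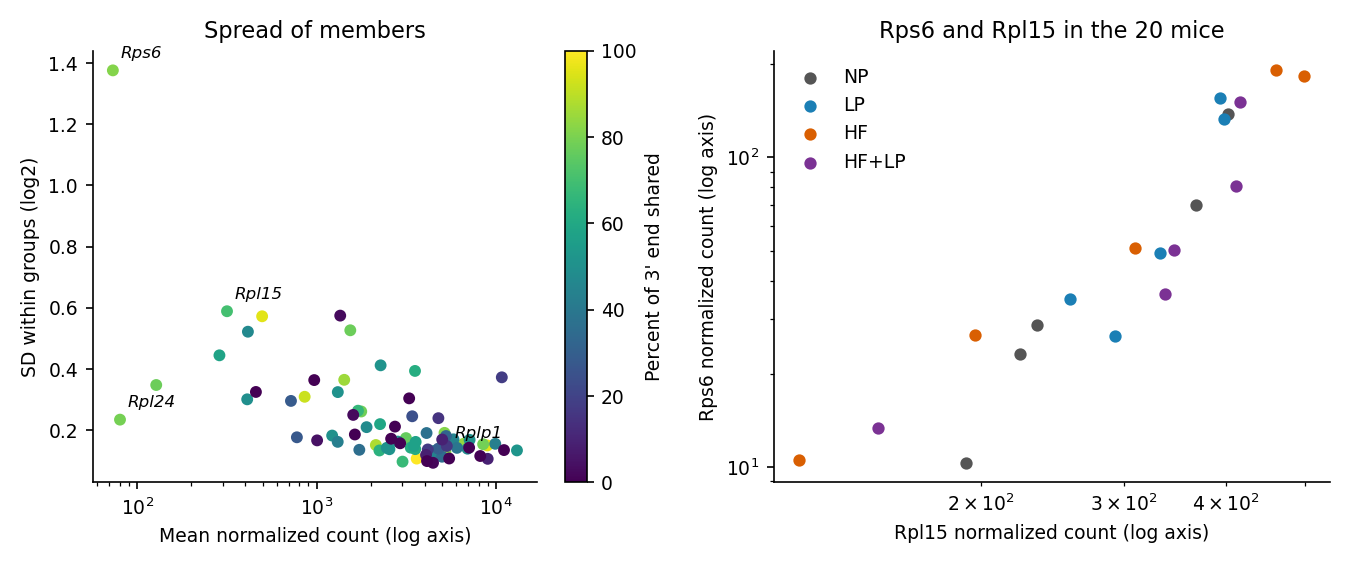
Left, within-group SD of log2 counts against the mean normalized count of 78 members, coloured by the percent of 75-base stretches at the 3′ end found in other genes. Right, Rps6 against Rpl15 in the 20 mice on log axes, where Rps6 runs from 10.3 to 191 and every diet group covers low and high values.

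Pyrimidine runs near annotated starts were set against the diet differences as a description. Most mRNAs of ribosomal proteins carry a TOP, yet 30 tested members with windows had no run. The split therefore cannot compare mRNAs with and without a TOP. Between HF+LP and NP, the 28 tested members with a pyrimidine run near an annotated start had a median log2 fold change of 0.23 and 9 past the unadjusted threshold, and the 30 tested members with windows but no run had 0.23 and 14. Other mRNAs known to carry a TOP, 22 genes such as elongation factors and Tpt1, had a median of 0.14, with 5 upward and 0 downward. Eef1b2, a nucleotide exchange subunit of elongation factor 1, had the smallest p among them, with a log2 difference of 0.28 ± 0.075 (SE; edgeR adjusted p = 0.22). None of the 22 was called.

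The wider machinery was described in the same comparison. Ribosomal proteins outside the naming rule (9 tested, with Fau and Rack1 among them) had a median of 0.19, with 2 upward, Rps3a1 (0.46 ± 0.16) and Fau (0.41 ± 0.18), edgeR adjusted p-values 0.37 and 0.52. Factors of ribosome assembly had 5 of 40 upward and 2 downward with a median of 0.11, and RNA polymerase I, which transcribes rRNA, 2 of 15 upward and 0 downward with a median of 0.06. Mitochondrial ribosomal proteins, which serve translation inside mitochondria, had 5 of 76 upward and 1 downward with a median of 0.058. Between HF+LP and LP, 22 of the 76 were upward at an unadjusted p under 0.05, against 6.26% of all genes. Counted by sign alone, 67 of the 76 had a fitted level below NP in LP. There 72 of 79 cytosolic members had a level above NP, as had 54.6% of all genes. No gene of these lists was called.

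Regulators of ribosomal protein synthesis (14 tested) had medians of -0.094 between HF and NP and -0.097 between HF+LP and NP, with 3 downward and 0 upward in each. Rptor, which encodes the mTORC1 subunit raptor, was counted at 209 to 219 in NP, at 170 to 208 in LP, at 142 to 194 in HF, and at 136 to 190 in HF+LP. Every mouse of the LP, HF, and HF+LP groups lay below every NP mouse. Its log2 difference was -0.43 ± 0.11 between HF and NP (edgeR adjusted p = 0.046, short of the threshold of 0.01) and -0.38 ± 0.11 between HF+LP and NP (adjusted p = 0.23). Rps6kb2, an S6 kinase gene, differed by -0.40 ± 0.14 and -0.35 ± 0.13, with adjusted p-values of 0.15 and 0.43.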

How the data were processed

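The authors made QuantSeq 3′ mRNA libraries from left ventricle, sequenced 75-base reads, and deposited unnormalized counts for each Ensembl gene. The submitters' processing notes name GRCm38 and DESeq2 1.22.2, and how reads with several matches were assigned is not given in the sources used here. A 3′ library yields about 1 fragment per transcript whatever its length, so counts were not divided by length. Groups were taken from the sample labels. The analysis used edgeR 4.0.16 under R 4.3.3. The filterByExpr function, given the groups, kept 13991 of 15956 genes. TMM scaling and a quasi-likelihood model over all 20 libraries followed, and p-values were adjusted by Benjamini-Hochberg across the kept genes. Calls needed an adjusted p below 0.01 together with a mean over 50 normalized counts. Base means and values per mouse are TMM-normalized counts. The fit was tested on simulated counts. Log2 ratios (2 added to both counts) were compared by two-sided exact permutation, whose smallest p is 0.00794. Alternatives were DESeq2 1.42.0, RLE scaling, scaling without ribosomal protein and mitochondrial genes, other filters and thresholds, covariates, and leaving out mice. The text names the 3 members with the smallest p in each of 4 comparisons, members picked for their roles, up to 3 more per role, and the 2 genes with the smallest p of other lists. Others were chosen after their values were seen, and a few genes that this rule selects are not reported here. The members and lists were chosen with earlier results of these data known. Mice were group-housed and their cages are not given, so p-values measure the spread between these mice.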

Additional observations from a re-analysis of the deposited data

Results flagged for a closer look

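The results below were marked because, in a group of 5 mice, the highest or lowest lay apart from the other 4 by more than 0.71 of the group's range (Dixon's 95% criterion). Of 112 groups tested, 10 were marked, and chance marks about 1 in 20 groups. LP mouse 13 had a Rplp0 count of 1935 (the others 3249 to 3671) and a Rpl36 count of 1515 (1978 to 2155), and its library stood apart from its group. HF mouse 2 had a Rpl41 count of 1464 (1938 to 2020) and a member share of 2.78% of nuclear-encoded counts (2.96% to 2.99%), and it had the smallest library, 12559607 counts. NP mouse 3 had a Rps27 count of 3047 (2619 to 2706) and a Rpl41 count of 1952 (1630 to 1724). The other marked values were a Rpl21 count of 2153 in NP mouse 8 (2359 to 2402), a Rpl3 count of 2015 in HF+LP mouse 3 (1471 to 1547), and a Rpl23 count of 7629 in HF+LP mouse 4 (5495 to 5986). The log2 ratio of Rpl3l to Rpl3 was -0.041 in HF mouse 1 (0.81 to 1.14). HF mouse 1 also had the highest atrial marker sum of its group (64410, median 296), as did HF+LP mouse 3 (29658, median 219) and LP mouse 13 (79172, median 8854). The part of these sums in the marked values was not tested.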

How the results depend on the processing

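No member was called under any alternative, and the median log2 fold change of the members kept its sign in the 5 pairwise comparisons, between 0.19 and 0.26 for HF+LP against NP. Counts at an unadjusted p under 0.05 moved more. For HF+LP against NP, 31 became 32 with RLE scaling, 31 without ribosomal protein and mitochondrial genes in the scaling, and 30 when the fit held just those 2 groups. The animal numbers did not pair the samples: deviations of same-numbered mice correlated between -0.55 and 0.48 over HF and HF+LP and between -0.48 and 0.13 over NP and HF. With the animal number as a replicate block, that count was 20, and for HF+LP against LP 13 became 0. For LP against NP, 2 upward became 0 upward and 1 downward. LP and NP shared only 1 animal number, and HF+LP and LP only 2, so few mice were compared directly in the block. In the replicate block, Rpl3 between LP and NP was -0.095 rather than 0.36, the ratio of Rpl22l1 to Rpl22 between HF and NP 0.055, and the ratio of Rps27l to Rps27 0.043 between HF and NP and 0.027 between HF+LP and LP, each reversed. With single mice left out, the ratio of Rpl22l1 to Rpl22 ran from -0.21 to 0.069 between HF and NP and from -0.061 to 0.21 between HF+LP and HF. That of Rps27l to Rps27 ran from -0.093 to 0.034 (0.0050 without HF mouse 1) between HF and NP and from -0.15 to 0.10 between HF+LP and LP, where it was 0.094 without the highest atrial library of each group. None of these ratios had an adjusted p under 0.05 in any setting, and the causes were not tested. Rps6 had as few as 8 counts in a library, and Rpl39l was below the filter on low counts.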
